A study of Homo sapiens with 60 samples.

Results

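This account covers 35 of the 42141 genes in an RNAseq table: the transporters, enzymes and regulators of glycolysis, lactate and pyruvate handling and the pentose phosphate route, with TXNIP and its relative ARRDC4. The genes were chosen by their names and functions, though with earlier results of these data known, and all 35 were found in the table. They comprised 2 glucose transporters, 6 enzymes of the hexokinase to phosphofructokinase steps, 3 PFKFB enzymes, 10 enzymes of the aldolase to pyruvate kinase steps, 9 genes of lactate and pyruvate, 3 of the pentose phosphate route and 2 arrestins.

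The libraries came from HEK293-EBNA1-6E cells, a derivative of the kidney-derived HEK293 line that expresses the viral protein EBNA1. ALG6 adds the first glucose to the lipid-linked N-glycan precursor, and UGGT1 and UGGT2 put a single glucose back on the N-glycans of glycoproteins that have not yet folded. The study made CRISPR/Cas9 knockout lines to isolate this second step, and the RNAseq libraries recorded the mRNA of the same lines. The 4 knockout lines were sequenced beside the parental WT cells. All 4 shared the loss of ALG6, either alone (ALG6-/-), with UGGT1 (ALG6/UGGT1-/-), with UGGT2 (ALG6/UGGT2-/-) or with both enzymes (ALG6/UGGT1/UGGT2-/-). Each line gave 3 biological replicates grown for 48 h in DMEM. Each knockout genotype was 1 line grown from a single-cell colony of the edited parental cells, so an effect of the genotype and one of the clone cannot be told apart. The p-values measure the spread between cultures of these lines.

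Cells take up glucose through GLUT transporters, trap it as glucose 6-phosphate with a hexokinase, and split it into pyruvate through glycolysis, or divert it to the pentose phosphate route for NADPH and ribose. TXNIP is an alpha-arrestin that binds thioredoxin and removes GLUT transporters from the cell surface, and ARRDC4 is an alpha-arrestin of the same family that also restrains glucose uptake. Both genes are classic targets of MondoA with its partner MLX, transcription factors that enter the nucleus when glucose 6-phosphate is plentiful and bind carbohydrate response elements made of a pair of E-boxes.

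Values were deposited as CPM, read counts scaled to the library's total, and the smallest step between them made 1 CPM worth 23.6 to 27.2 estimated reads in the 15 libraries. ALG6 mRNA averaged 1.14 CPM in ALG6-/-, 2.87 CPM in ALG6/UGGT1-/-, 4.67 CPM in ALG6/UGGT2-/- and 2.96 CPM in ALG6/UGGT1/UGGT2-/- cells, against 14.3 CPM in WT cells, and fell in each by limma. UGGT1 mRNA averaged 24.9 CPM in ALG6/UGGT1-/- and 31.7 CPM in ALG6/UGGT1/UGGT2-/- cells, against 67.0 CPM in WT cells (limma adjusted p = 0.0572 and 0.134), and UGGT2 mRNA 14.6 CPM in ALG6/UGGT2-/- and 14.3 CPM in ALG6/UGGT1/UGGT2-/- cells, against 18.3 CPM in WT cells (limma adjusted p = 0.547 and 0.403), so mRNA did not check these labels. UGGT2 mRNA was lowest in ALG6-/- cells, at 10.9 CPM, and passed as lower there than in WT cells (log2 fold change -0.72, limma adjusted p = 0.0279). UGGT1 mRNA ranged from 13.1 to 83.9 CPM in the ALG6-/- libraries (limma adjusted p = 0.115 against WT cells). Of 9 HEK293 genes, 8 had a median of at least 1 CPM, NEFM stayed at or under 0.551 CPM, and the highest values of PTPRC, CD3E, PECAM1, DCN and ALB were 0.0414, 0.0808, 0.191, 0.281 and 0.164 CPM. The ALG6-/- libraries stood apart in scale. The median ratio of their genes to the mean library was 0.915, 0.672 and 0.793 in replicates 1, 2 and 3, against 0.949 to 1.17 in the other 12 libraries, and the median gene of all 14692 tested was 0.44 lower on the log2 scale in ALG6-/- than in WT cells. Changes of the 35 genes are therefore also set against the median of all genes.

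The promoter windows of TXNIP and ARRDC4 are shown first because these 2 genes moved most. The sequences are those of RefSeq (GRCh38.p14), from 250 bases before the start site to 50 after it, with the E-box matches in capitals. TXNIP lies on chromosome 1 from 145992435 to 145996579 on the minus strand (GENCODE 44), and its window covers chr1:145996530-145996829, minus strand. ARRDC4 lies on chromosome 15 from 97960703 to 97973833 on the plus strand, and its window covers chr15:97960453-97960752, plus strand.
TXNIP: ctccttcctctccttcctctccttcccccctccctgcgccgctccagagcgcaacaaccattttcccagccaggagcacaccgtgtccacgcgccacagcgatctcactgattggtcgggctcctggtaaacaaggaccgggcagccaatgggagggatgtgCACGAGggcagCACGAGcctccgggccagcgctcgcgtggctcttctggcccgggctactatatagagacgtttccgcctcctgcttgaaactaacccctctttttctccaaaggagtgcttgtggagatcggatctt
ARRDC4: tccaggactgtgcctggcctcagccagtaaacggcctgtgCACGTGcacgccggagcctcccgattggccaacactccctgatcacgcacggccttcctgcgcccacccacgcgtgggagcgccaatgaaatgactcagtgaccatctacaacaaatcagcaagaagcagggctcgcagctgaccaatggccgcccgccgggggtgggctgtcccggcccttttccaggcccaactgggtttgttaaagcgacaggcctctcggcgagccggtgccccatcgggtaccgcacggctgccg
The TXNIP window held a pair of E-box-like hexamers, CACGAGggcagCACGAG, that began 88 and 77 bases before the start site, each with 1 mismatch to CACGTG and 5 bases apart. Such a pair (CACGTG and CACGTG 5 bases apart, 1 mismatch allowed in each, which the palindromic hexamer makes the same on both strands) was in 1 of 63 windows of the 35 genes, that of TXNIP, and in 0.421% of all 35116 windows. ARRDC4 held 1 exact CACGTG 210 bases before the start site, a hexamer found in 12.7% of the windows of the 35 genes (8 of 63, for ALDOA, ALDOC, ARRDC4, GAPDH, HK2, LDHA, PDK2 and PFKFB3) and in 7.26% of all windows. The shorter letters of the hypoxia element, ACGTG and GCGTG on both strands, were in 38.1% and 42.9% of the windows of the 35 genes, against 21.4% and 36.5% of all windows. ACGTG lies within CACGTG, so these matches overlap. Windows were present for 32 of the 35 genes, and a match is a description of letters, not of binding.

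TXNIP and ARRDC4 had lost most of their mRNA in ALG6-/- cells and part of it in ALG6/UGGT1/UGGT2-/- cells. TXNIP had 21.9, 12.4 and 13 CPM in the 3 ALG6-/- libraries and 37.8, 34.5 and 29.9 CPM in ALG6/UGGT1/UGGT2-/- libraries, against 163.4, 175.8 and 184.3 CPM in WT libraries. No library of either line came near the WT range. TXNIP fell 11.1-fold in ALG6-/- against WT cells on the log2(CPM + 0.5) scale (log2 fold change -3.47, SE 0.18, limma adjusted p = 2.46e-08). The fall in ALG6/UGGT1/UGGT2-/- against WT cells was 5.08-fold (log2 fold change -2.35, SE 0.18, limma adjusted p = 1.25e-06). CPM is a share of a library, so fewer expressing cells and less RNA per cell cannot be told apart.

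ALG6/UGGT1-/- and ALG6/UGGT2-/- cells held TXNIP near its WT level. ALG6/UGGT1-/- libraries had 236.5, 181.2 and 197.5 CPM and ALG6/UGGT2-/- libraries 207.3, 195.2 and 187.0 CPM, beside the WT values above. Against WT cells the log2 fold changes were 0.23 (95% interval -0.16 to 0.61, limma adjusted p = 0.404) and 0.17 (-0.22 to 0.56, limma adjusted p = 0.637). Against ALG6-/- cells, TXNIP rose 13-fold in ALG6/UGGT1-/- cells (log2 fold change 3.70, SE 0.18, limma adjusted p = 5.35e-09), 12.5-fold in ALG6/UGGT2-/- cells (3.64, limma adjusted p = 8.77e-09) and 2.19-fold in ALG6/UGGT1/UGGT2-/- cells (1.13, limma adjusted p = 0.000229). These 3 comparisons share the ALG6-/- libraries. As a percentage of GAPDH in the same library, TXNIP was 0.257 to 0.576% in ALG6-/- and 0.959 to 1.23% in ALG6/UGGT1/UGGT2-/- cells. It was 7.24 to 9.01% in ALG6/UGGT1-/- and 6.74 to 7.19% in ALG6/UGGT2-/- cells, against 5.11 to 5.58% in WT cells. GAPDH was itself called higher in ALG6-/- and lower in ALG6/UGGT1-/- than in WT cells, so these ratios also carry the change of GAPDH.

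ARRDC4 had 18.5, 4.07 and 10.3 CPM in ALG6-/- libraries and 44.4, 48.3 and 40.6 CPM in ALG6/UGGT1/UGGT2-/- libraries, against 141.1, 135.6 and 74.3 CPM in WT libraries. The third WT library was the lowest of its line, yet it stayed above both sets of knockout values. ARRDC4 fell 11.5-fold in ALG6-/- cells (log2 fold change -3.53, SE 0.41, limma adjusted p = 1.58e-05). Its fall in ALG6/UGGT1/UGGT2-/- cells was 2.52-fold (-1.33, SE 0.41, limma adjusted p = 0.0231), and this call was lost in 4 of the 18 alternatives, each of them 1 library left out (limma adjusted p up to 0.0801 without ALG6/UGGT1/UGGT2-/- replicate 1 or 3 or WT replicate 1 or 2). ALG6/UGGT1-/- libraries had 117.7, 150.0 and 161.3 CPM and ALG6/UGGT2-/- libraries 82.4, 123.3 and 131.0 CPM, both overlapping WT. The log2 fold changes against WT cells were 0.33 (95% interval -0.56 to 1.23, limma adjusted p = 0.602) and -0.03 (-0.93 to 0.86, limma adjusted p = 0.981). Against ALG6-/- cells, ARRDC4 rose 14.5-fold in ALG6/UGGT1-/- cells, 11.3-fold in ALG6/UGGT2-/- and 4.57-fold in ALG6/UGGT1/UGGT2-/- cells (log2 fold changes 3.86, 3.49 and 2.19, limma adjusted p = 4.18e-06, 1.19e-05 and 0.000777).

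**Figure D1:**
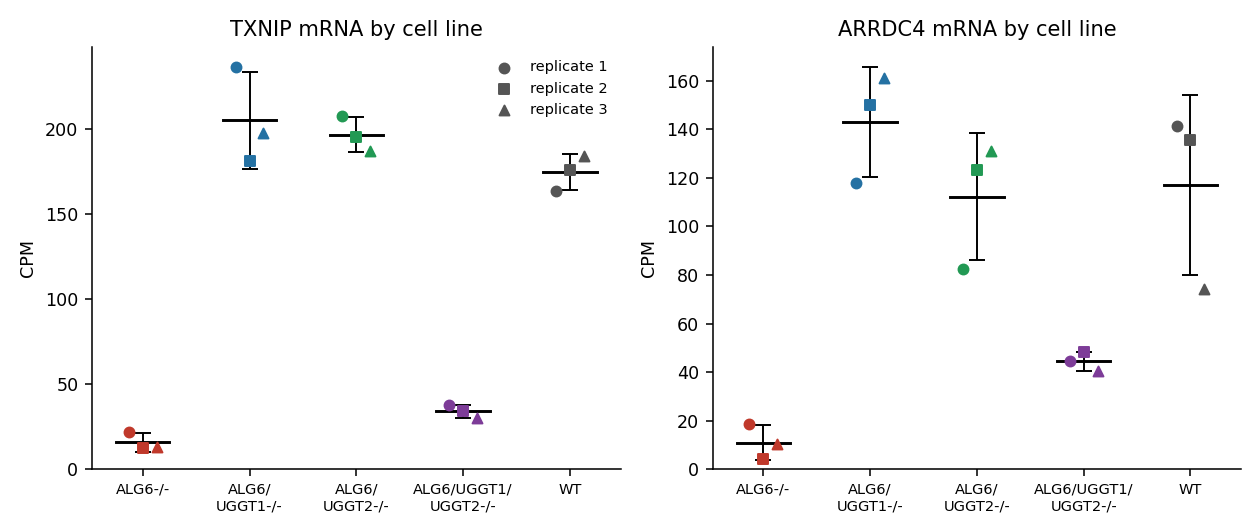
CPM of TXNIP (left) and ARRDC4 (right) in each library of the 5 lines, with the mean (bar) and SD (whiskers) of 3 replicates. TXNIP lay between 12.4 and 37.8 CPM in ALG6-/- and ALG6/UGGT1/UGGT2-/- libraries and between 163.4 and 236.5 CPM in all others.

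In ALG6-/- against WT cells 5 of 6 genes of the hexokinase to phosphofructokinase steps and 8 of 10 of the aldolase to pyruvate kinase steps rose. Of the 35 genes, 25 passed the test, 17 higher and 8 lower, where 60.8% of all genes tested passed (15.1% higher and 45.7% lower). Their median log2 fold change was 0.18, against -0.44 for all genes, and 26 of the 35 lay above the median of all genes. After rescaling each library by its median ratio, 21 were higher and 3 lower, and under quantile normalization 19 and 5. Calls that held in each alternative were 13 rises, those of HK1, GPI, PFKL, PFKM, PFKP, PFKFB4, ALDOA, PGAM1, ENO2, PKM, PGD, TALDO1 and TKT, and the 2 falls of TXNIP and ARRDC4. SLC16A3 passed the filter on low values only through the lines where it was high, so its place among the counts of this and the later comparisons is a description and not a test.

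Hexokinase opens glycolysis, and its isozymes parted. HK1, the hexokinase of most tissues, had 253.1, 304.0 and 273.7 CPM in ALG6-/- libraries, against 116.2, 121.2 and 111.7 CPM in WT libraries. Every ALG6-/- library lay above every WT library, and HK1 rose 2.37-fold (log2 fold change 1.24, SE 0.07, limma adjusted p = 7.56e-08). HK2, the inducible isozyme, had 73.6, 17.5 and 41.5 CPM in ALG6-/- libraries, against 77.8, 76.3 and 40.3 CPM in WT libraries, a range that overlapped (log2 fold change -0.71, SE 0.41, limma adjusted p = 0.15). The 3 phosphofructokinase genes, for the step that commits glucose to glycolysis, all rose. PFKP, the platelet type, had 158.0, 203.6 and 177.0 CPM in ALG6-/- libraries, against 97.1, 99.9 and 94.7 CPM in WT libraries (log2 fold change 0.87, limma adjusted p = 3.35e-06). PFKL, the liver type, had 191.8, 257.7 and 216.5 CPM in ALG6-/- libraries, against 133.5, 149.9 and 156.7 CPM in WT libraries (0.59, limma adjusted p = 0.000293). PFKM, the muscle type, averaged 127.0 ± 6.81 CPM in ALG6-/- cells and 105.6 ± 3.24 CPM in WT cells (SD, n = 3 each) and changed least (0.26, limma adjusted p = 0.00336). GPI, which turns glucose 6-phosphate into fructose 6-phosphate, averaged 488.1 ± 29.8 CPM in ALG6-/- cells and 355.4 ± 18.9 CPM in WT cells (SD, n = 3 each) and rose by limma (0.46, adjusted p = 0.00011).

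The PFKFB enzymes make and break fructose 2,6-bisphosphate, the main activator of phosphofructokinase. PFKFB4 had 9.37, 11.6 and 10.8 CPM in ALG6-/- libraries, against 6.03, 6.02 and 6.19 CPM in WT libraries, and rose (log2 fold change 0.75, limma adjusted p = 0.000272). PFKFB2 had 6.42, 1.78 and 3.68 CPM in ALG6-/- libraries, against 10.6, 8.27 and 4.87 CPM in WT libraries. The groups overlapped, and its fall (-0.99, limma adjusted p = 0.0315) was lost in 10 of 18 alternatives, among them the fit without ALG6-/- replicate 2. PFKFB3 averaged 55.7 ± 0.689 CPM in ALG6-/- cells and 50.6 ± 9.27 CPM in WT cells (SD, n = 3 each) and did not pass (limma adjusted p = 0.22).

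From aldolase to pyruvate kinase, 8 of 10 genes rose and none fell in ALG6-/- against WT cells. PKM, pyruvate kinase of most tissues, led with 1852.6, 2449.9 and 2086.5 CPM in ALG6-/- libraries, against 1006.4, 1058.0 and 1278.0 CPM in WT libraries (log2 fold change 0.93, limma adjusted p = 1.66e-05). ALDOA, the main aldolase, had 1207.3, 1439.7 and 1321.5 CPM in ALG6-/- libraries, against 740.3, 794.8 and 890.3 CPM in WT libraries (0.71, limma adjusted p = 1.22e-05). ENO2, the neuronal enolase, had 201.2, 234.1 and 219.1 CPM in ALG6-/- libraries, against 143.7, 154.2 and 146.7 CPM in WT libraries (0.55, limma adjusted p = 3.11e-05). ENO1, the ubiquitous enolase, had 2716.6, 3600.5 and 3105.9 CPM in ALG6-/- libraries, against 3384.6, 3479.7 and 4644.2 CPM in WT libraries, and did not pass (-0.28, limma adjusted p = 0.0627). GAPDH, often taken as a loading control, had 3804.4, 4823.6 and 4277.4 CPM in ALG6-/- libraries, against 2968.3, 3148.0 and 3606.5 CPM in WT libraries. The groups did not overlap and GAPDH rose 1.33-fold (log2 fold change 0.41, SE 0.09, limma adjusted p = 0.00239), but not under quantile normalization (0.05, limma adjusted p = 0.407). The other risers were ALDOC, TPI1, PGK1 and PGAM1, with log2 fold changes of 0.59, 0.38, 0.41 and 0.54. The calls of TPI1 and ALDOC were lost with only the lines compared, that of TPI1 also under quantile normalization (0.017), and that of PGK1 without WT replicate 1 (limma adjusted p = 0.0501). TPI1, triose-phosphate isomerase, averaged 1587.2 ± 205.9 CPM in ALG6-/- cells and 1222.1 ± 175.2 CPM in WT cells (SD, n = 3 each), with libraries that overlapped. PGK1, which makes the first ATP of the payoff phase, averaged 610.7 ± 79.3 CPM in ALG6-/- cells and 459.6 ± 48.1 CPM in WT cells. PGAM1, the mutase after it, averaged 658.3 ± 100 CPM in ALG6-/- cells and 451.0 ± 67.1 CPM in WT cells. BPGM, which makes 2,3-bisphosphoglycerate, averaged 24.1 ± 7.65 CPM in ALG6-/- cells and 20.6 ± 1.8 CPM in WT cells (SD, n = 3 each; limma adjusted p = 0.418). GAPDH, PGK1, PGAM1, ENO1, TPI1, ALDOA, LDHA and LDHB have pseudogene copies and SLC2A3 has a close paralog, so reads could be divided between copies, and their values are less certain.

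All 3 pentose phosphate genes rose in ALG6-/- against WT cells. PGD, which makes NADPH in the oxidative branch, had 296.9, 381.4 and 345.2 CPM in ALG6-/- libraries, against 210.7, 219.2 and 239.4 CPM in WT libraries (log2 fold change 0.61, limma adjusted p = 0.000143). TKT, transketolase, had 662.3, 887.3 and 769.6 CPM in ALG6-/- libraries, against 444.6, 466.6 and 578.2 CPM in WT libraries (0.64, limma adjusted p = 0.000631). TALDO1, transaldolase, had 137.0, 183.1 and 152.1 CPM in ALG6-/- libraries, against 85.8, 89.9 and 117.9 CPM in WT libraries (0.69, limma adjusted p = 0.000791). In all 3 genes no ALG6-/- library fell within the WT range, and libraries of these lines did not overlap in 53.1% of all genes tested.

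Of the 9 lactate and pyruvate genes 4 were called lower in ALG6-/- against WT cells and none higher, where 45.7% of all genes were called lower, so the count is near that of all genes. LDHA, which makes lactate from pyruvate, had 317.3, 314.2 and 294.4 CPM in ALG6-/- libraries, against 415.5, 440.8 and 486.6 CPM in WT libraries (log2 fold change -0.53, limma adjusted p = 0.00124). SLC16A3, the lactate exporter MCT4, was scarce and had 0.404, 0.339 and 0.331 CPM in ALG6-/- libraries (8 to 10 estimated reads), against 1.25, 0.945 and 1.12 CPM in WT libraries (24 to 31 estimated reads), a fitted log2 difference of -0.90. Its level in ALG6-/- and ALG6/UGGT1/UGGT2-/- libraries was under the 1 CPM minimum, so no p-value is read for it. PDK1 and PDK3, kinases that switch off pyruvate dehydrogenase, fell by 0.84 and 0.41 on the log2 scale (limma adjusted p = 0.0238 and 0.00821). PDK1 averaged 15.6 ± 8.34 CPM in ALG6-/- cells and 25.9 ± 3.2 CPM in WT cells, and PDK3 averaged 9.93 CPM in ALG6-/- cells and 13.3 CPM in WT cells. The libraries of PDK1 overlapped, and its call was lost in 10 of 18 alternatives, among them those without ALG6-/- replicate 2 or 3 or WT replicate 1 or 2. After median ratio rescaling PDK3 no longer fell (log2 fold change 0.02), and after the values were corrected for length and GC content of the transcripts neither it nor LDHA or PDK1 did (0.03, 0.11 and 0.24). LDHB, SLC16A1 (the transporter MCT1), PDK2, MPC1 and MPC2 (the mitochondrial pyruvate carrier) did not pass, with log2 fold changes of -0.15, -0.66, 0.13, 0.12 and -0.06. MPC1 averaged 28.1 ± 2.27 CPM in ALG6-/- cells and 25.9 ± 2.37 CPM in WT cells. MPC2 averaged 36.1 ± 1.17 CPM in ALG6-/- cells and 37.7 ± 4.67 CPM in WT cells. ALG6-/- replicate 2 held the lowest SLC16A1 of all libraries, 59.8 CPM beside 200 and 134.6 CPM in ALG6-/- replicates 1 and 3, and likewise the lowest HK2, PFKFB2, PDK1 and ARRDC4. Of the glucose transporters, SLC2A1 (GLUT1) averaged 80.1 ± 10.2 CPM in ALG6-/- cells and 82.8 ± 5.89 CPM in WT cells (SD, n = 3 each; limma adjusted p = 0.635). SLC2A3 (GLUT3) averaged 25.8 ± 4.51 CPM in ALG6-/- cells and 35.3 ± 5.86 CPM in WT cells and fell (log2 fold change -0.44, limma adjusted p = 0.0161), a call lost in 8 of 18 alternatives, among them the length and GC correction (0.14) and the fits without ALG6-/- replicate 2 or WT replicate 1 or 2.

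**Figure D2:**
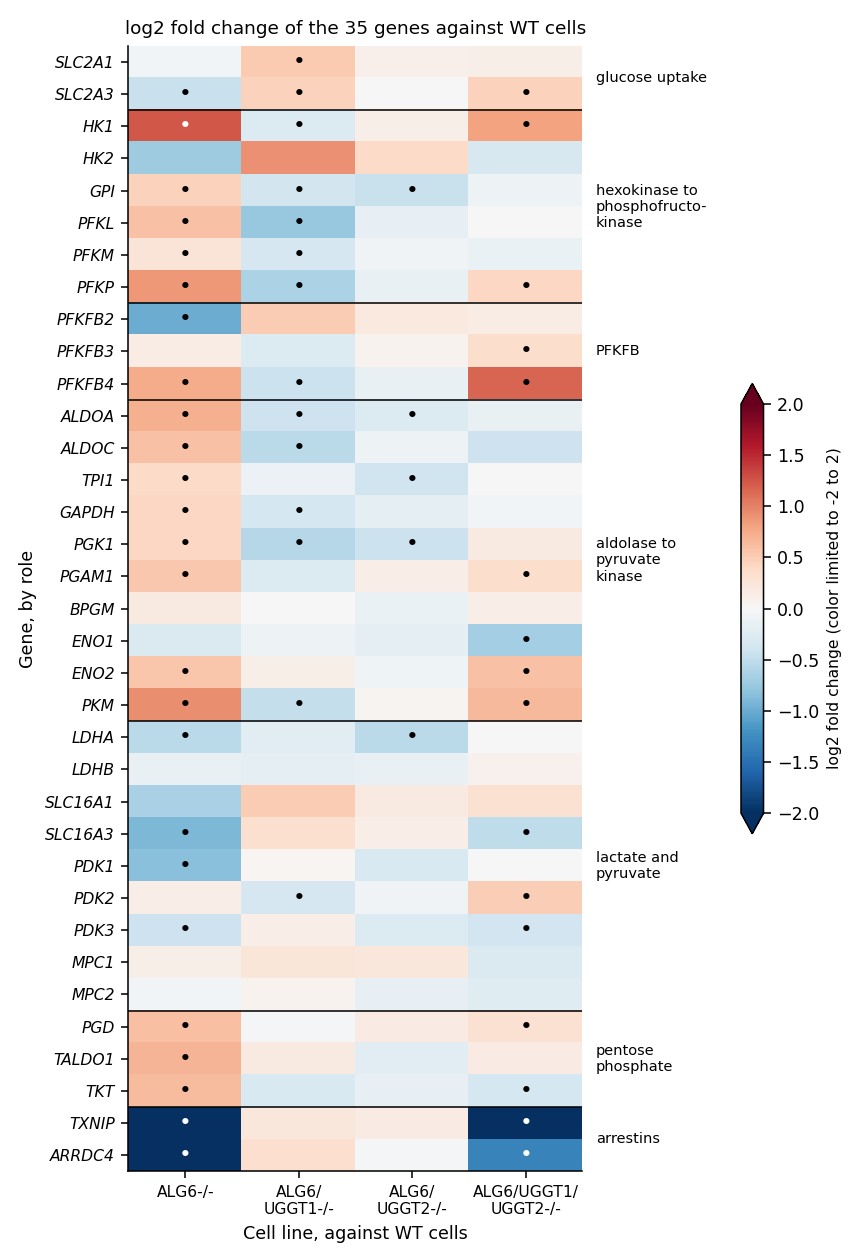
log2 fold change of each of the 35 genes (rows, by role) in the 4 knockout lines (columns) against WT cells, on a color scale limited to -2 to 2. Dots mark genes at a limma adjusted p under 0.05: 25 in ALG6-/-, 14 in ALG6/UGGT1-/-, 5 in ALG6/UGGT2-/- and 16 in ALG6/UGGT1/UGGT2-/- cells.

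In ALG6/UGGT1-/- against WT cells the 3 phosphofructokinase genes fell and both glucose transporters rose. In all, 14 of the 35 genes passed, 2 higher and 12 lower, where 24.1% of all genes passed (10.3% higher and 13.8% lower), and their median log2 fold change was -0.12 against 0.07 for all genes. After median ratio rescaling 1 was higher and 2 lower, and 9 passed without ALG6/UGGT1-/- replicate 2 or replicate 3. The phosphofructokinases led. PFKL had 89.7, 87.5 and 82.5 CPM in ALG6/UGGT1-/- libraries, against 133.5, 149.9 and 156.7 CPM in WT libraries (log2 fold change -0.76, limma adjusted p = 0.000176). PFKP had 65.3, 58.8 and 62.9 CPM in ALG6/UGGT1-/- libraries, against 97.1, 99.9 and 94.7 CPM in WT libraries (-0.64, limma adjusted p = 0.000188). These were the 2 falls that held in each alternative tried. PFKM, HK1, GPI, PFKFB4, ALDOA, ALDOC, GAPDH, PGK1, PKM and PDK2 fell by 0.28 to 0.58 on the log2 scale, GAPDH by 0.35 (SE 0.09, limma adjusted p = 0.0147). The calls of ALDOC, PFKFB4, PDK2, HK1, GAPDH and PGK1 were lost in 11, 8, 8, 5, 4 and 3 of 18 alternatives. Those of PFKM, GPI, ALDOA and PKM were each lost in 1, median ratio rescaling. SLC2A1 had 131.3, 112.2 and 116.1 CPM in ALG6/UGGT1-/- libraries, against 76.6, 83.6 and 88.3 CPM in WT libraries, and rose (0.53, limma adjusted p = 0.00151). SLC2A3 had 47.7, 49.4 and 48.1 CPM in ALG6/UGGT1-/- libraries, against 37.4, 39.8 and 28.7 CPM in WT libraries (0.46, limma adjusted p = 0.029), and this call was lost in 6 of 18 alternatives, among them the fits without any 1 of the 3 ALG6/UGGT1-/- replicates or WT replicate 3. The call of SLC2A1 was lost after median ratio rescaling. None of the 3 pentose phosphate genes passed, with log2 fold changes of -0.02 for PGD, 0.18 for TALDO1 and -0.31 for TKT.

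In ALG6/UGGT2-/- against WT cells 5 of the 35 genes passed (14.3%), all lower, where 13.9% of all genes passed (6.14% higher and 7.75% lower), a like share, and the median log2 fold change was -0.11 against 0.03 for all genes. They were GPI (log2 fold change -0.44), LDHA (-0.54), PGK1 (-0.43), TPI1 (-0.39) and ALDOA (-0.28), with limma adjusted p = 0.00102, 0.00557, 0.0311, 0.0303 and 0.0386. None of the 5 calls held in every alternative, after median ratio rescaling no gene passed, and 2 or 3 passed without any 1 of ALG6/UGGT2-/- replicates 2 and 3 and WT replicates 2 and 3. GPI had 280.0, 259.2 and 247.8 CPM in ALG6/UGGT2-/- libraries, against 336.3, 355.9 and 374.1 CPM in WT libraries. LDHA had 326.7, 304.9 and 288.3 CPM in ALG6/UGGT2-/- libraries, against 415.5, 440.8 and 486.6 CPM in WT libraries. GAPDH did not pass (-0.20, 95% interval -0.40 to 0.00, limma adjusted p = 0.193).

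With all 3 enzymes lost, PFKFB4, HK1, PKM, ENO2 and PDK2 rose against WT cells. In ALG6/UGGT1/UGGT2-/- against WT cells 16 of the 35 genes passed, 10 higher and 6 lower, where 35.6% of all genes passed (13.5% higher and 22% lower), and the median log2 fold change was 0.01 against -0.03 for all genes. Without ALG6/UGGT1/UGGT2-/- replicate 1 or 3, 9 and 10 passed. PFKFB4 had 14.5, 13 and 15.1 CPM in ALG6/UGGT1/UGGT2-/- libraries, against 6.03, 6.02 and 6.19 CPM in WT libraries. It rose 2.23-fold, with no overlap (log2 fold change 1.16, SE 0.13, limma adjusted p = 1.69e-05). Libraries of these lines did not overlap in 54.6% of all genes tested. HK1 had 206.0, 209.2 and 196.1 CPM in ALG6/UGGT1/UGGT2-/- libraries, against 116.2, 121.2 and 111.7 CPM in WT libraries (0.81, limma adjusted p = 5.52e-06). PKM had 1708.8, 1690.2 and 1803.6 CPM in ALG6/UGGT1/UGGT2-/- libraries, against 1006.4, 1058.0 and 1278.0 CPM in WT libraries (0.65, limma adjusted p = 0.000537). ENO2 had 233.1, 224.4 and 208.5 CPM in ALG6/UGGT1/UGGT2-/- libraries, against 143.7, 154.2 and 146.7 CPM in WT libraries (0.58, limma adjusted p = 4.09e-05). PDK2 had 66.2, 69.6 and 71.1 CPM in ALG6/UGGT1/UGGT2-/- libraries, against 44.9, 48.5 and 53.6 CPM in WT libraries (0.49, limma adjusted p = 0.00225). These 5 rises held in each alternative tried.

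The remaining rises in ALG6/UGGT1/UGGT2-/- cells were SLC2A3, PFKP, PFKFB3, PGAM1 and PGD, with log2 fold changes of 0.47, 0.41, 0.35, 0.36 and 0.30. In the same order, these calls were lost in 3, 1, 3, 9 and 6 of the 18 alternatives. ENO1 had 2344.0, 2325.2 and 2406.0 CPM in ALG6/UGGT1/UGGT2-/- libraries, against 3384.6, 3479.7 and 4644.2 CPM in WT libraries, and fell (-0.69, limma adjusted p = 0.000781), although after median ratio rescaling it did not pass (-0.63, limma adjusted p = 0.052). The others called lower beside the arrestins were SLC16A3 (-0.51), PDK3 (-0.38) and TKT (-0.35). The PDK3 call was lost in 7 of 18 alternatives. The TKT call was lost in 9 of 18 alternatives, among them median ratio rescaling, the replicate block and the fits without any 1 of the 3 ALG6/UGGT1/UGGT2-/- replicates or WT replicate 3 (limma adjusted p up to 0.348). Steps that had risen in ALG6-/- cells but did not pass here included GPI (-0.11), PFKL (0.01), PFKM (-0.13), ALDOA (-0.14), TPI1 (-0.01), TALDO1 (0.16) and GAPDH (-0.06, 95% interval -0.26 to 0.14, limma adjusted p = 0.666). MPC1, MPC2, LDHA and SLC2A1 gave -0.29, -0.25, -0.01 and 0.11 and did not pass.

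**Figure D3:**
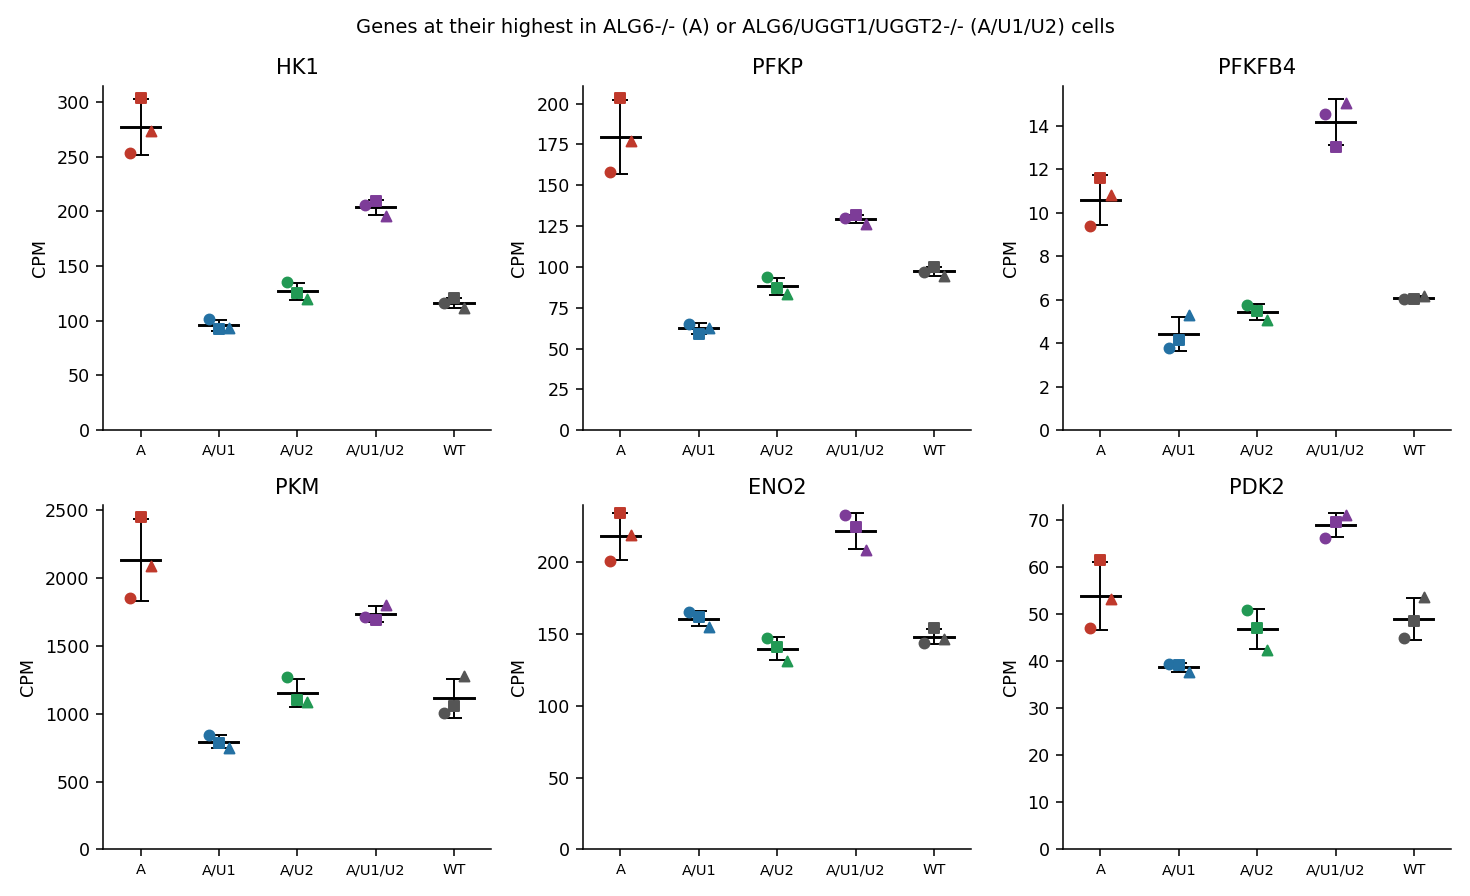
CPM of HK1, PFKP, PFKFB4, PKM, ENO2 and PDK2 in each library, with mean (bar) and SD (whiskers) of 3 replicates per line. In the line names, A stands for ALG6, U1 for UGGT1 and U2 for UGGT2. For HK1, the ALG6/UGGT1/UGGT2-/- libraries at 196.1 to 209.2 CPM sat between the ALG6-/- libraries at 253.1 to 304.0 CPM and the WT libraries at 111.7 to 121.2 CPM.

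Set against ALG6-/- cells, each multiple knockout line had lower HK1 and PFKP and higher TXNIP and ARRDC4, in comparisons that share the ALG6-/- libraries. In ALG6/UGGT1-/- against ALG6-/- cells 30 of the 35 genes passed, 11 higher and 19 lower, where 73.5% of all genes passed (53.1% higher and 20.4% lower). The median log2 fold change of the 35 was -0.44, against 0.52 for all genes, and after median ratio rescaling 7 were higher and 21 lower. HK1 fell 2.87-fold (log2 fold change -1.52, SE 0.07, limma adjusted p = 6.2e-09), PFKP 2.85-fold (-1.51, limma adjusted p = 1.72e-08), PKM 2.67-fold (-1.42, limma adjusted p = 2.55e-07) and PFKL 2.54-fold (-1.34, limma adjusted p = 1.72e-07). PFKFB4 fell 2.27-fold (-1.18), ALDOA 2.19-fold (-1.13) and ALDOC 2.17-fold (-1.12), with limma adjusted p = 3.86e-06, 1.25e-07 and 8.59e-05. In none of these 7 genes did a library of one line reach the range of the other, which held for 69% of all genes tested. GAPDH fell 1.69-fold (-0.76, SE 0.09, limma adjusted p = 1.3e-05).

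The genes called higher in ALG6/UGGT1-/- against ALG6-/- cells were the transporters SLC2A1, SLC2A3, SLC16A1 and SLC16A3, HK2, PFKFB2, LDHA, PDK1, PDK3 and the arrestins. HK2 had 89.4, 140.9 and 126.9 CPM in ALG6/UGGT1-/- libraries, against 73.6, 17.5 and 41.5 CPM in ALG6-/- libraries, and rose 3.07-fold with no overlap (log2 fold change 1.62, SE 0.41, limma adjusted p = 0.00371). PFKFB2 had 8.05, 13.5 and 12.0 CPM in ALG6/UGGT1-/- libraries, against 6.42, 1.78 and 3.68 CPM in ALG6-/- libraries (1.5, SE 0.36, limma adjusted p = 0.00261). SLC16A3 had 1.72, 1.32 and 1.43 CPM in ALG6/UGGT1-/- libraries, against 0.404, 0.339 and 0.331 CPM in ALG6-/- libraries, a fitted difference of 1.21 for which no p-value is read. SLC16A1 had 230.6, 284.6 and 279.0 CPM in ALG6/UGGT1-/- libraries, against 200, 59.8 and 134.6 CPM in ALG6-/- libraries (1.17, SE 0.33, limma adjusted p = 0.00694), and did not pass after the length and GC correction (0.07). LDHA and PDK1 reversed under that correction (-0.54 and -0.65).

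ALG6/UGGT2-/- against ALG6-/- cells gave 24 called genes, 7 higher and 17 lower, where 67.4% of all genes passed (48.6% higher and 18.8% lower), with a median log2 fold change of -0.31 against 0.46 for all genes. After median ratio rescaling the split was 4 higher and 23 lower. HK1 fell 2.17-fold (log2 fold change -1.12, SE 0.07, limma adjusted p = 9.68e-08) and PFKP 2.02-fold (-1.02, SE 0.08, limma adjusted p = 6.16e-07), both with no overlap. Libraries of these lines did not overlap in 64.9% of all genes tested. GAPDH fell 1.52-fold (-0.61, SE 0.09, limma adjusted p = 9.92e-05). SLC16A3 had 1.22, 1.39 and 1.13 CPM in ALG6/UGGT2-/- libraries, beside the ALG6-/- values above. PFKFB2 rose 2.27-fold (1.18, limma adjusted p = 0.0118), a call lost in 3 of 18 alternatives, among them the fit without ALG6-/- replicate 2. HK2 rose by limma (1.10, adjusted p = 0.0319), but its libraries overlapped and the call was lost in 11 of 18 alternatives, among them the fit without ALG6-/- replicate 2.

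In ALG6/UGGT1/UGGT2-/- against ALG6-/- cells 25 genes passed, 10 higher and 15 lower, where 61.2% of all genes passed (43.5% higher and 17.6% lower), with a median log2 fold change of -0.19 against 0.36 for all genes and a split of 4 higher and 20 lower after median ratio rescaling. ALDOC, the brain aldolase, had 8.20, 7.39 and 8.58 CPM in ALG6/UGGT1/UGGT2-/- libraries, against 12.6, 19.9 and 18.4 CPM in ALG6-/- libraries (log2 fold change -1.0, SE 0.17, limma adjusted p = 0.000369). TKT had 373.2, 380.1 and 407.0 CPM in ALG6/UGGT1/UGGT2-/- libraries, against 662.3, 887.3 and 769.6 CPM in ALG6-/- libraries (-0.99, limma adjusted p = 2.74e-05). GAPDH fell (-0.47, SE 0.09, limma adjusted p = 0.00106). PFKFB2 rose (1.14, SE 0.36, limma adjusted p = 0.0171), a call lost in 5 of 18 alternatives. Of the genes that rose in ALG6/UGGT1/UGGT2-/- against WT cells, ENO2 and PGAM1 did not pass against ALG6-/- cells (0.03 and -0.19) and HK1, PFKP and PKM fell (-0.44, -0.46 and -0.29). The PKM call was lost in 11 of 18 alternatives, among them quantile normalization (-0.036), the replicate block and the fits without ALG6-/- replicate 2 or 3 or any 1 of the 3 ALG6/UGGT1/UGGT2-/- replicates. PFKFB4 and PDK2 rose further (0.41 and 0.36), but not after median ratio rescaling or quantile normalization.

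In 28 of the 35 genes, 19 higher and 9 lower, the difference between lines with and without UGGT2 was unlike in lines with and without UGGT1. This interaction passed in 66.9% of all genes tested (20.3% higher and 46.6% lower). Each line is 1 clone, so an effect of the genotypes and one of the clones cannot be told apart. Here the difference of ALG6/UGGT1/UGGT2-/- and ALG6/UGGT1-/- cells was set against that of ALG6/UGGT2-/- and ALG6-/- cells. The median of the 35 was 0.71, against -0.60 for all genes, and 22 were higher and 5 lower after median ratio rescaling. TXNIP differed by -2.57 on the log2 scale between ALG6/UGGT1/UGGT2-/- and ALG6/UGGT1-/- cells and by 3.64 between ALG6/UGGT2-/- and ALG6-/- cells, a difference of -6.22 (SE 0.25, limma adjusted p = 1.32e-09). ARRDC4 gave -1.67 and 3.49, a difference of -5.16 (SE 0.58, limma adjusted p = 6.82e-06). HK1, PFKP and PKM went the other way, with 1.08, 1.05 and 1.13 where UGGT1 was also lost and -1.12, -1.02 and -0.88 where it was present (differences of 2.20, 2.07 and 2.01). For each of the 5 genes the 2 differences had opposite signs. GAPDH gave 0.29 and -0.61, a difference of 0.90 (SE 0.13, limma adjusted p = 6.12e-05). All 3 pentose phosphate genes and 8 of the 10 genes from aldolase to pyruvate kinase were among the 19.

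Across the 5 lines together, 31 of the 35 genes passed the F test (81.2% of all genes did). The 4 that did not were BPGM, LDHB, PDK1 and MPC2. LDHB, the other main subunit of lactate dehydrogenase, varied least, with line means of 981.5 CPM in ALG6-/-, 939.6 CPM in ALG6/UGGT1-/-, 962.4 CPM in ALG6/UGGT2-/- and 1133.0 CPM in ALG6/UGGT1/UGGT2-/- cells, against 1070.2 CPM in WT cells. The highest line mean was 13 times the lowest for both TXNIP and ARRDC4, 4.17 times for SLC16A3, 3.22 times for PFKFB4 and 1.21 times for LDHB. ALG6/UGGT1-/- cells had the highest line mean of both arrestins and ALG6-/- cells the lowest. For TXNIP the order from low to high was ALG6-/-, then ALG6/UGGT1/UGGT2-/-, then WT, then ALG6/UGGT2-/- and last ALG6/UGGT1-/- cells, of which the last 2 overlapped each other and neither passed against WT. The summed share of the 35 genes was 1.67 to 2.02% of a library in ALG6-/- cells and 1.28 to 1.71% in the other 12 libraries.

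Ratios of 2 genes within a library do not depend on its scale. Transcript GC content and length can still enter them, and no ratio was corrected for these. GC content was 57.8% for PFKP and 50.4% for PFKM, 54.2% for HK1 and 50.5% for HK2, and 54.4% for ENO1 and 53.9% for ENO2. The ratios were chosen after the values had been seen and are not per length, so they are compared between lines only. HK1 to HK2 was 3.44, 17.4 and 6.59 in ALG6-/- libraries, 0.657 to 1.14 in ALG6/UGGT1-/-, 1.25 to 2.09 in ALG6/UGGT2-/- and 4.10 to 4.17 in ALG6/UGGT1/UGGT2-/- libraries, against 1.49 to 2.77 in WT libraries. Both lines with low TXNIP thus stood above the other 3 lines. PFKP to PFKM was 1.27 to 1.51 in ALG6-/-, 0.728 to 0.775 in ALG6/UGGT1-/-, 0.849 to 0.910 in ALG6/UGGT2-/- and 1.27 to 1.39 in ALG6/UGGT1/UGGT2-/- libraries, against 0.915 to 0.928 in WT libraries. ENO1 to ENO2 was 13.5 to 15.4 in ALG6-/-, 20.9 to 23.4 in ALG6/UGGT1-/-, 22.6 to 24.5 in ALG6/UGGT2-/- and 10.1 to 11.5 in ALG6/UGGT1/UGGT2-/- libraries, against 22.6 to 31.7 in WT libraries. Here too the 2 lines did not overlap the rest. LDHA to LDHB overlapped between all knockout lines and WT except ALG6/UGGT2-/- cells, with 0.278 to 0.360 in those and 0.367 to 0.491 in WT libraries. ARRDC4 to HK2 varied little among the ALG6-/- libraries although both genes did, with 0.232 to 0.252 in ALG6-/-, 1.06 to 1.32 in ALG6/UGGT1-/-, 1.27 to 1.41 in ALG6/UGGT2-/- and 0.863 to 0.947 in ALG6/UGGT1/UGGT2-/- libraries, against 1.78 to 1.84 in WT libraries.

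**Figure D4:**
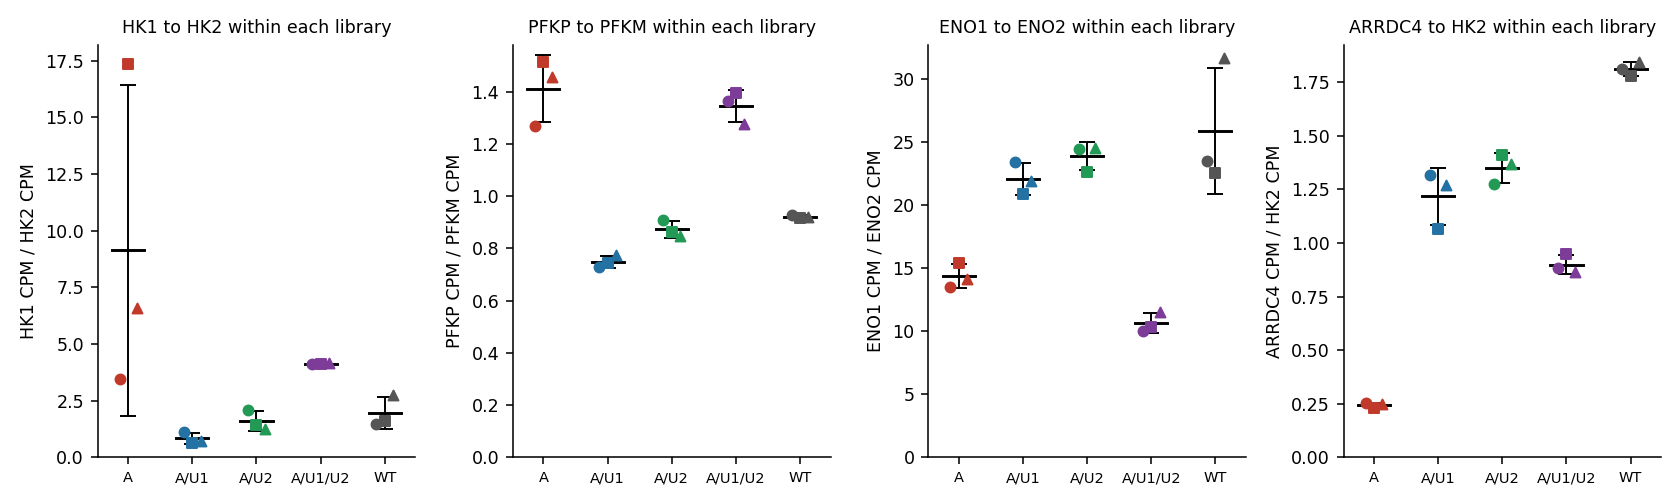
Ratio of the CPM of 2 genes within each library (HK1 to HK2, PFKP to PFKM, ENO1 to ENO2, ARRDC4 to HK2), with mean (bar) and SD (whiskers) of 3 replicates per line, and line names shortened to A, A/U1, A/U2, A/U1/U2 and WT. PFKP to PFKM was at least 1.27 in ALG6-/- and ALG6/UGGT1/UGGT2-/- libraries and at most 0.928 in the others.

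The changes also varied with transcript composition. Across the 35 genes the log2 fold change in ALG6-/- against WT cells had a Spearman correlation of 0.57 with the GC content and -0.27 with the length of the canonical transcript, beside 0.41 and -0.32 across 13357 genes. These are descriptions across genes that share libraries. The 35 genes had a median transcript length of 2626 bases and GC content of 53.1%, against 3401 bases and 48.8% for all genes. After a correction for both, 23 were higher and 3 lower in ALG6-/- against WT cells, and TXNIP and ARRDC4 still fell. Over the 18 alternatives TXNIP ranged from -3.73 to -2.88 and ARRDC4 from -4.00 to -2.82 in that comparison, and HK1 from 1.15 to 1.69. The part of composition in the smaller changes was not tested beyond this correction.

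**Figure D5:**
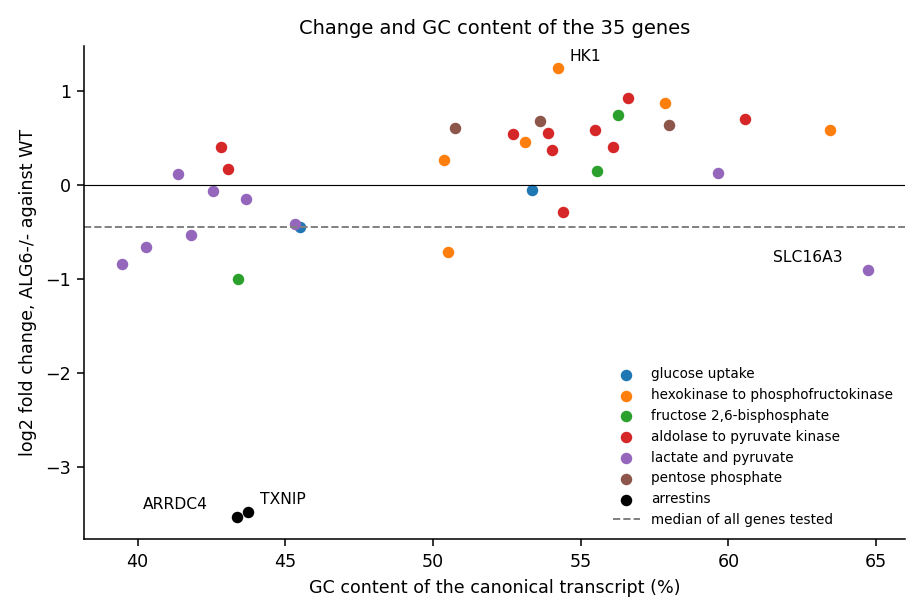
log2 fold change in ALG6-/- against WT cells (vertical) by GC content of the canonical transcript in percent (horizontal) for the 35 genes, colored by role, with the median of all genes tested at -0.44 (dashed). TXNIP and ARRDC4 lie lowest, at -3.47 and -3.53.

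Lists of related genes were read against the shares of all genes called against WT cells, which were 15.1% higher and 45.7% lower in ALG6-/-, 10.3% and 13.8% in ALG6/UGGT1-/-, 6.14% and 7.75% in ALG6/UGGT2-/- and 13.5% and 22% in ALG6/UGGT1/UGGT2-/- cells. No list was tested as a set. MLX, the partner of MondoA and ChREBP, averaged 143.0 CPM in ALG6-/-, 69.3 CPM in ALG6/UGGT1-/-, 84.5 CPM in ALG6/UGGT2-/- and 107.4 CPM in ALG6/UGGT1/UGGT2-/- cells, against 80.5 CPM in WT cells. It rose in ALG6-/- (log2 fold change 0.82) and ALG6/UGGT1/UGGT2-/- cells (0.42) against WT cells (limma adjusted p = 1.55e-05 and 0.00429). MLXIP, which encodes MondoA, rose in ALG6/UGGT1/UGGT2-/- cells (0.62, limma adjusted p = 0.0056). Of the 9 genes of the MondoA and ChREBP list, other alpha-arrestins and thioredoxin genes included, 3 rose and 1 fell in ALG6-/- cells, none rose and 2 fell in ALG6/UGGT1-/- cells, none rose and 1 fell in ALG6/UGGT2-/- cells, and 2 rose and 1 fell in ALG6/UGGT1/UGGT2-/- cells, all against WT cells. ARRDC3, another alpha-arrestin, fell in ALG6-/- cells (-1.35, limma adjusted p = 0.000542), and ARRDC1 fell in ALG6/UGGT1/UGGT2-/- cells (-0.80, limma adjusted p = 7.33e-05). The median of the list in ALG6-/- against WT cells was 0.21, against -0.44 for all genes.

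Of 19 other glycolysis and glucose genes that passed the filter (of 26 listed), 3 rose and 7 fell in ALG6-/-, 1 rose and 3 fell in ALG6/UGGT1-/-, 1 rose in ALG6/UGGT2-/- and 3 rose and 2 fell in ALG6/UGGT1/UGGT2-/- cells against WT cells, with counts in ALG6-/- cells near the shares of all genes (15.1% and 45.7%) and a median there of -0.06 against -0.44 for all genes. BSG, basigin, the chaperone of the lactate transporters, averaged 1076.8 CPM in ALG6-/-, 519.9 CPM in ALG6/UGGT1-/-, 550.5 CPM in ALG6/UGGT2-/- and 735.0 CPM in ALG6/UGGT1/UGGT2-/- cells, against 631.2 CPM in WT cells, and rose in ALG6-/- cells (log2 fold change 0.77, limma adjusted p = 7.05e-05). SLC2A4 (GLUT4) rose in ALG6-/- cells (1.24, limma adjusted p = 1.14e-05). SLC2A10 (GLUT10) and ENO3, the muscle enolase, fell there (-2.0 and -0.96, limma adjusted p = 2.99e-06 and 0.000154). SLC16A7 averaged 0.618 CPM in ALG6-/- cells, under the 1 CPM minimum, so its place among the counts of that line is a description and not a test. Of 9 other pentose phosphate genes (of 10 listed), 2 rose and 5 fell in ALG6-/- cells, 2 fell in ALG6/UGGT1-/- cells, 1 fell in ALG6/UGGT2-/- cells, and 1 rose and 3 fell in ALG6/UGGT1/UGGT2-/- cells. Their median in ALG6-/- cells was -0.49, near the -0.44 of all genes, of which 45.7% fell. H6PD, the glucose 6-phosphate dehydrogenase of the endoplasmic reticulum, fell (-0.98, limma adjusted p = 2.31e-06), and SHPK, sedoheptulokinase, and PRPS1, which makes PRPP, rose (0.96 and 0.51, limma adjusted p = 1.9e-05 and 1.75e-05). SHPK rose in ALG6/UGGT1/UGGT2-/- cells too (1.13, limma adjusted p = 1.04e-05). TKTL1 averaged 0.783 CPM in ALG6/UGGT1/UGGT2-/- cells, against 4.20 CPM in WT cells, a fitted log2 difference of -1.86. Its mean in ALG6/UGGT1/UGGT2-/- cells was under the 1 CPM minimum, so no p-value is read for it. Its place among the 3 falls is a description and not a test.

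Of 13 genes of the pyruvate dehydrogenase complex and pyruvate entry, 1 rose and 6 fell in ALG6-/- cells, with a median log2 fold change of -0.47 against -0.44 for all genes, while 3 rose in ALG6/UGGT1-/- cells, 1 rose in ALG6/UGGT2-/- cells and 2 fell in ALG6/UGGT1/UGGT2-/- cells. The last 2 were PCK2, mitochondrial PEPCK, and PC, pyruvate carboxylase (-1.09 and -0.67, limma adjusted p = 2.74e-05 and 0.000638). PDK4 averaged 0.810 CPM in ALG6-/- cells, under the 1 CPM minimum, so its place among the counts of that line is a description and not a test. Of 17 target genes of HIF1 outside glycolysis (of 18 listed), 2 rose and 10 fell in ALG6-/- cells, 2 rose and 2 fell in ALG6/UGGT1-/- cells, 2 fell in ALG6/UGGT2-/- cells, and 3 rose and 1 fell in ALG6/UGGT1/UGGT2-/- cells. Their median in ALG6-/- cells was -0.44, the same as that of all genes, of which 45.7% fell. MIR210HG averaged 1.69 CPM in ALG6/UGGT1/UGGT2-/- cells and 0.540 to 0.901 CPM in the other lines, under the 1 CPM minimum. Its place among the HIF1 counts is a description and not a test. NDRG1, a stress-response gene, rose in ALG6-/- and ALG6/UGGT1/UGGT2-/- cells (0.88 and 0.92, limma adjusted p = 4.26e-06 and 7.19e-06). It fell in ALG6/UGGT1-/- and ALG6/UGGT2-/- cells (-0.96 and -0.67, limma adjusted p = 1.27e-05 and 0.000321). VEGFA, an angiogenic growth factor, fell in ALG6-/- cells (-1.70, limma adjusted p = 2.44e-05), and P4HA2, a prolyl hydroxylase of collagen, rose (1.01, limma adjusted p = 1.09e-06).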

How the data were processed

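Polyadenylated RNA of 15 cultures was sequenced with a directional kit as 76-base paired reads, in 4 lanes per library. The authors aligned reads to hg38 with STAR, estimated gene counts with RSEM and deposited CPM values from edgeR; versions are not given in the sources used here. The smallest step between values put 1 CPM at 23.6 to 27.2 estimated reads, and 89.7 to 90.9% of values were whole reads within 0.02, so no count test was run. Of 42141 genes, 15877 were at 0 in every library and 28 names had turned into dates. A further 8 columns without a header, holding 2 stray values, were not used.

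A gene was kept if 3 or more libraries had 1 CPM or more, and the 14692 kept were tested on log2(CPM + 0.5) with limma 3.58.1 (R 4.3.3), in 1 fit of 5 lines with a variance trend and 10 residual degrees of freedom. P-values were adjusted by Benjamini-Hochberg over all genes tested, with a threshold of 0.05, and intervals are 95%. The fit was tested on simulated data. Transcript length and GC content came from GENCODE 44 (24926 symbols matched directly and 1082 by an older symbol) for 13357 genes, 90.9% of those tested. Python 3.11.15, NumPy 2.4.6, pandas 2.3.3 and matplotlib 3.10.9 were used. The 35 genes and the lists were chosen with earlier results of these data known. All 35 are named, with full statistics for called genes with a log2 fold change of at least 1 in size and for TXNIP, ARRDC4 and GAPDH, and up to 4 called genes by p from each list. Alternatives changed the pseudocount (0.1, 2), the filter (none, or a mean of at least 5 CPM), the scaling, the variance trend, the lines fitted, the replicate block and a length and GC correction, or left out libraries. A protein comparison of TXNIP and ARRDC4 was not run.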

Additional observations from a re-analysis of the deposited data

Results flagged for a closer look

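In 28 of the 35 genes the difference between lines with and without UGGT2 was unlike in lines with and without UGGT1. These genes passed by the interaction term of limma (adjusted p under the threshold), where the same term passed in 66.9% of all genes tested. An effect of the genotypes and one of the clones cannot be told apart. Values are on the log2 scale, the difference between lines without and with UGGT2 where UGGT1 was lost minus that where it was present. The ALG6-/- libraries enter each of them.

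Among genes with a negative difference, limma gave TXNIP at -6.22 (SE 0.25, adjusted p = 1.32e-09), ARRDC4 at -5.16 (SE 0.58, adjusted p = 6.82e-06), HK2 at -2.33 (SE 0.58, adjusted p = 0.00359) and PFKFB2 at -1.55 (SE 0.51, adjusted p = 0.0179). SLC16A3 gave -1.84 (SE 0.18), but it passed the filter only through the lines where it was high, so no p-value is read for it. Among the glycolysis genes with a positive one, it gave PFKFB4 at 2.49 (SE 0.18, adjusted p = 1.2e-07), HK1 at 2.20 (SE 0.11, adjusted p = 4.8e-09), PFKP at 2.07 (SE 0.12, adjusted p = 2.26e-08), PKM at 2.01 (SE 0.16, adjusted p = 2.45e-07) and PGK1 at 1.59 (SE 0.17, adjusted p = 3.63e-06). Next came PFKL at 1.52 (SE 0.14, adjusted p = 1.13e-06), ALDOA at 1.26 (SE 0.11, adjusted p = 9.07e-07), GPI at 1.16 (SE 0.10, adjusted p = 4.43e-07), ENO2 at 1.10 (SE 0.10, adjusted p = 9.24e-07), PGAM1 at 1.04 (SE 0.18, adjusted p = 0.000221) and PDK2 at 1.02 (SE 0.14, adjusted p = 5.07e-05), also by limma.

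The remaining differences were smaller. They were positive in GAPDH (0.90), TALDO1 (0.89), TPI1 (0.88), ALDOC (0.81), PGD (0.77), TKT (0.76), PFKFB3 (0.71) and PFKM (0.54), and negative in ENO1 (-0.68), MPC1 (-0.65), PDK3 (-0.65) and SLC2A1 (-0.57). The difference of SLC2A1 was 0.02 after median ratio rescaling, that of PDK3 0.14 after quantile normalization and that of MPC1 0.15 after the length and GC correction. ENO1 did not pass after median ratio rescaling (limma adjusted p = 0.818), nor PFKFB2 under quantile normalization (limma adjusted p = 0.0539). What set these differences was not tested.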

How the results depend on the processing

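In ALG6/UGGT2-/- against WT cells 5 genes passed, but 2 without a filter, with only the lines compared and with the length and GC correction (also with the replicate block added), 3 without WT replicate 3 and ALG6-/- replicate 2, and 0 after median ratio rescaling. In ALG6/UGGT1-/- against WT cells 14 passed, but 3 after median ratio rescaling and 9 with only the lines compared. In ALG6/UGGT1/UGGT2-/- against WT cells 16 passed, but 10 after median ratio rescaling. The cause was not tested. With 1 library left out, counts ranged between 22 and 27 in ALG6-/-, 9 and 12 in ALG6/UGGT1-/-, 2 and 5 in ALG6/UGGT2-/- and 9 and 14 in ALG6/UGGT1/UGGT2-/- against WT cells. Against ALG6-/- cells they ranged between 29 and 31 in ALG6/UGGT1-/-, 21 and 27 in ALG6/UGGT2-/- and 19 and 28 in ALG6/UGGT1/UGGT2-/- cells, between 28 and 31 for the interaction and between 29 and 32 for any difference.

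Changes that turned direction were mostly those of transporters and of pyruvate handling. Median ratio rescaling gave 0.016 for PDK3 in ALG6-/- against WT cells, -0.20 for LDHA in ALG6/UGGT1-/-, -0.0017 for SLC2A3 in ALG6/UGGT2-/- and -0.024 for PDK2 in ALG6/UGGT1/UGGT2-/- against ALG6-/- cells, and 0.016 for SLC2A1 in the interaction. Quantile normalization gave 0.17 for PDK3 in ALG6-/- against WT cells, and, against ALG6-/- cells, -0.18 for PDK3 in ALG6/UGGT1-/-, -0.021 for SLC2A3 in ALG6/UGGT2-/- and -0.13 for PFKFB4 and -0.032 for SLC16A3 in ALG6/UGGT1/UGGT2-/- cells, with 0.14 for PDK3 in the interaction. The length and GC correction, with or without the replicate block, gave 0.14 for SLC2A3, 0.11 for LDHA, 0.24 for PDK1 and 0.025 for PDK3 in ALG6-/- against WT cells. Against ALG6-/- cells it gave -0.54 for LDHA and -0.65 for PDK1 in ALG6/UGGT1-/-, -0.22 for SLC2A3 and -0.090 for SLC16A1 in ALG6/UGGT2-/- and -0.028 for LDHA and -0.41 for PDK1 in ALG6/UGGT1/UGGT2-/- cells, with 0.15 for MPC1 in the interaction. The cause was not tested.

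Of 30 pairs of libraries with the same replicate number, 14 had deviations correlated over 0.1 (range -0.75 to 0.75) and 5 of 15 libraries were closest to their own number, so the numbers do not pair the cultures. Libraries of unlike number did share deviations. ALG6-/- replicate 2 correlated at 0.70 with ALG6/UGGT1-/- replicate 1, 0.79 with ALG6/UGGT2-/- replicate 1 and 0.77 with WT replicate 3, but -0.76 with WT replicate 1. ALG6-/- replicate 2 and the libraries at these positive values had the lowest median ratio of their lines (0.672, 1.04, 1.00 and 0.949). What these cultures shared was not tested. With the replicate block 24 genes passed in ALG6-/-, 12 in ALG6/UGGT1-/-, 2 in ALG6/UGGT2-/- and 14 in ALG6/UGGT1/UGGT2-/- against WT cells. TXNIP and ARRDC4 kept their calls under every alternative in ALG6-/- against WT cells and in each comparison with ALG6-/- cells. Depth limits SLC16A3 most, at 8 to 10 estimated reads in ALG6-/- libraries.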
